A study of Rattus norvegicus with 75 samples.

Results

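Cortical collecting ducts (CCD) of rats fed lithium for 72 h were compared with those of rats fed without it, across all genes that could be tested. The comparison holds 36 of the 75 libraries of the series: 19 from lithium and 17 from control animals, chosen by the segment, the treatment and the time on their labels. The animals were male Sprague-Dawley rats of 120 to 160 g, whose food held either 40 mM of lithium chloride per kg or none, and tubule segments were microdissected from their kidneys. RNA from the dissected segments was made into full-length cDNA, and the deposited values are TPM, transcript shares scaled to transcript length and to the library total. Cortical thick ascending limb (cTAL) libraries at 72 h, 10 from lithium and 12 from control rats, were used where a difference between segments is stated. No label ties a library to a rat, so the p-values below measure the scatter of these libraries alone, and part of it may be technical.

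The collecting duct is the last part of the nephron that adjusts the urine. Its principal cells take up sodium and, under vasopressin, water, and its intercalated cells secrete acid or base. Lithium enters principal cells through the epithelial sodium channel, and long treatment leaves the duct unresponsive to vasopressin, a state called nephrogenic diabetes insipidus. The series asks which signals start that state.

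The CCD libraries carried the markers of their segment. All 15 principal cell and all 13 intercalated cell markers listed passed the filter for low values, and their summed TPM was 12545.2 to 20725.6 and 9383.4 to 13638.9 in control libraries. In lithium libraries the sums were lower in the median but overlapped, at 10295 to 14564.5 for principal and 7546.8 to 10139.1 for intercalated cell markers. In these tubules fewer cells of a type and less RNA per cell cannot be told apart. Markers of other segments were scarce, with thick limb sums of 171 to 325 TPM in control and 119 to 1042 TPM in lithium CCD libraries, against 52652.5 to 88354 in control cTAL. Summed immune markers were 32.7 to 644 and 171 to 1151 TPM, and summed endothelial markers 30.2 to 276 and 17.3 to 107 TPM, in control and lithium libraries. Cd3e was at a median of 0 TPM in both groups.

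The libraries of each group fell into 4 sets whose members shared the state of genes that were either high or low. Such genes included Pfdn6, Slc39a1 and the histocompatibility genes RT1-N2 and RT1-CE4. The control sets were libraries 1 to 4, 5 to 8, 9 to 12 and 13 to 17, and the lithium sets libraries 1 to 6, 7 to 11, 12 to 15 and 16 to 19, each numbered 1 to 4 in that order. No 2 libraries were identical. Each gene was tested over the 36 libraries and again on the 8 set means, and "in both fits" below means an adjusted p under 0.05 in both with the same sign. What the sets stand for is not in the labels. Libraries of a set may share a source, so libraries may not be independent and p-values over libraries may be too small. Adjusted p-values printed for single genes are those over libraries unless another fit is named.

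Over libraries, 4338 of 11644 genes (37.3%) were called between lithium and control CCD with limma and Benjamini-Hochberg adjustment, 2564 higher (22.0%) and 1774 lower (15.2%). On set means 1260 were higher (10.8%) and 499 lower (4.29%). Both fits called 1258 genes higher (10.8%) and 499 lower (4.29%). Rises also reached further than falls. Among the genes called in both fits, 385 rose and 63 fell by a log2 of at least 1, and 36 rose and 6 fell by at least 2. In 199 genes (1.71%) every lithium library lay above every control library, and in 36 genes (0.309%) every lithium library lay below.

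Genes above 100 TPM were called more often than scarcer ones, and rises outnumbered falls at each level of abundance. Of the 1374 genes with a mean under 3 TPM, 22.6% were called higher and 7.50% lower over libraries. Of the 1577 genes between 100 and 1000 TPM, 35.5% were higher and 22.6% lower. The median size of the difference was 0.24 on the log2 scale in the first group and 0.20 in the second. The log2(TPM + 1) scale understates the change of low genes. The filter for low values also treats rises and falls unequally. A gene under 1 TPM in every control library enters with 17 of 19 lithium libraries at 1 TPM or more. The reverse case needs all 17 control libraries. The part of the filter in the shares under 3 TPM was not tested. The median difference over all genes was 0.00, and median-of-ratios scaling moved it to -0.02. With that scaling rises hardly outnumbered falls, at 2395 higher and 2326 lower over libraries. The excess of rises was also smaller without control set 1 (2353 and 2198), lithium set 4 (2372 and 2206) or control library 3 alone (2493 and 2188). It was larger without some other sets, such as lithium set 1 (2589 and 1165). Counts by level were not made with scaling.

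**Figure D1:**
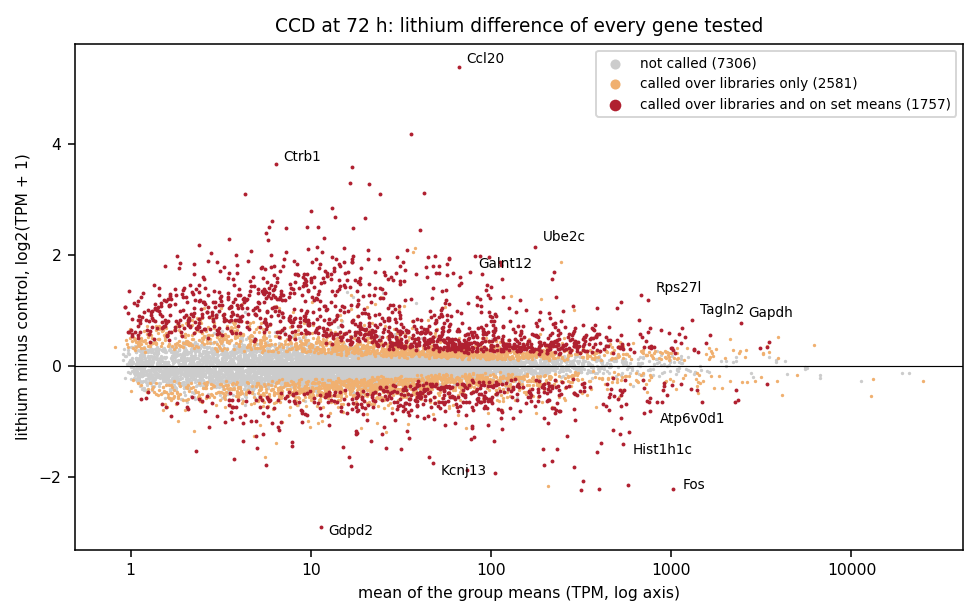
Lithium minus control difference on the log2(TPM + 1) scale (vertical) against the mean of the group means in TPM (horizontal, log axis) for each of the 11644 genes tested in CCD at 72 h. Red points are the 1757 genes called in both fits, orange points the 2581 called over libraries only, and grey points the 7306 not called; more red points lie above 0 than below it at every level.

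Below, the value of a gene in a group is given as its lowest, median and highest TPM over the 17 control or 19 lithium libraries. Several of the largest rises were in genes with little mRNA in control ducts. Pkib, an inhibitor of the cAMP-dependent protein kinase, lay at 0, 0.900 and 2.72 TPM in control and 5.39, 10.0 and 23.7 TPM in lithium libraries (log2 difference 2.503, SE 0.169, adjusted p = 1.59e-15). Mlf1, myeloid leukemia factor 1, lay at 0, 2.43 and 4.86 TPM in control and 11.0, 16.1 and 23.4 TPM in lithium libraries (SE 0.166, adjusted p = 1.04e-15). All lithium libraries were above all controls for both genes. Crabp1, a cytosolic binding protein of retinoic acid, lay at 0.700, 2.42 and 8.65 TPM in control and 6.62, 25.8 and 42.1 TPM in lithium libraries (log2 difference 2.68, SE 0.209, adjusted p = 1.01e-13), and 17 of 19 lithium libraries were above the highest control. Lcn2, which encodes the injury marker neutrophil gelatinase-associated lipocalin, rose by a log2 of 2.80 from a control median of 1.30 to a lithium median of 15.9 TPM, with 16 of 19 lithium libraries above all controls. Guca2b, which encodes the natriuretic peptide uroguanylin, lay at 0.170, 2.66 and 8.24 TPM in control and 3.97, 14.4 and 60.5 TPM in lithium libraries, a log2 difference of 2.13. The groups overlapped for Guca2b, and 13 of 19 lithium libraries were above the highest control.

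Genes best known from the testis were among these rises. Cox6b2, the testis form of a cytochrome c oxidase subunit, lay at 0, 1.57 and 3.61 TPM in control and 4.62, 11.9 and 25.6 TPM in lithium libraries (log2 difference 2.48, SE 0.226, adjusted p = 7.57e-12). Tcp11, t-complex 11, lay at 0.920, 3.72 and 5.51 TPM in control and 13.6, 19.4 and 29.5 TPM in lithium libraries (log2 difference 2.30, SE 0.146, adjusted p = 2.77e-16). The groups did not overlap for either gene. The digestive enzyme gene Ctrb1 and the incretin gene Gip were the 2 genes under 0.5 TPM in each control and at 1 TPM or more in each lithium library, and no gene showed the reverse. Ctrb1 was at most 0.15 TPM in control and at least 4.03 TPM in lithium libraries, and Gip at most 0.21 and at least 3.99 TPM.

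Some rises took place in genes that were abundant already. Galnt12, which starts mucin-type O-glycosylation, lay at 19.5, 37.3 and 46.7 TPM in control and 86.6, 110.1 and 178 TPM in lithium libraries (log2 difference 1.70, SE 0.0969, adjusted p = 1.1e-17). Gapdh, the glycolytic dehydrogenase often used as a reference gene, gained the most TPM of all genes called in both fits and lay at 1539.5, 1787 and 2045 TPM in control and 2455, 2989 and 3924 TPM in lithium libraries (log2 difference 0.77, SE 0.0515, adjusted p = 1.12e-15). Tagln2, transgelin 2, an actin-binding protein, lay at 808, 938 and 1062 TPM in control and 1526, 1654 and 1952 TPM in lithium libraries (log2 difference 0.83, SE 0.0424, adjusted p = 4.82e-19). The lithium and control libraries did not overlap in any of these 3 genes. Cytosolic creatine kinase Ckb, which buffers ATP, rose by 0.69, and the respiratory chain subunit Cox6a1 and the ATP synthase subunit Atp5g1 rose by 0.43 and 0.33 on the log2 scale. Cyclophilin A, encoded by Ppia and also a common reference gene, rose by 0.41 (SE 0.0629), with a lithium median of 1738 and a control median of 1288 TPM.

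**Figure D2:**
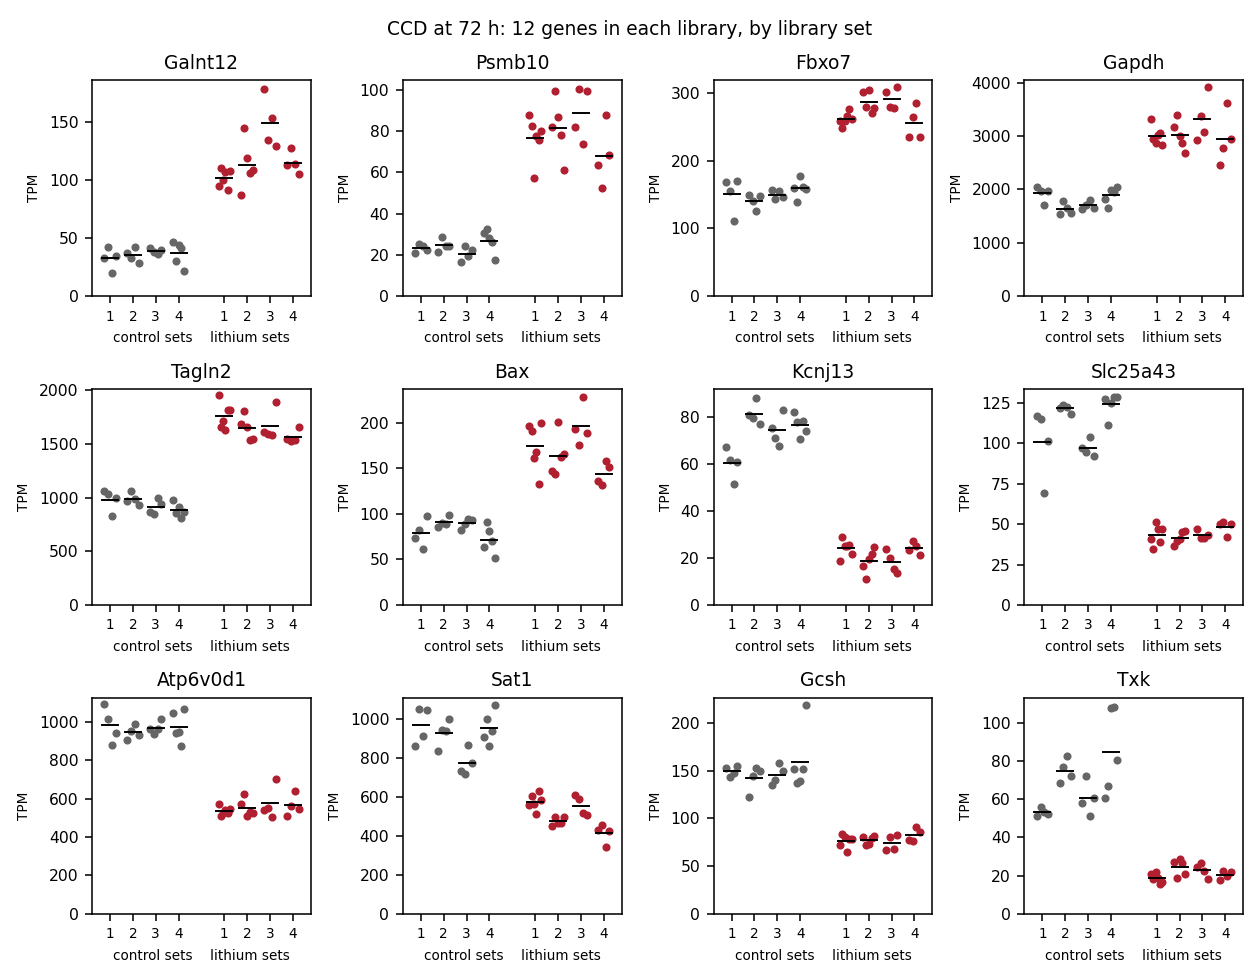
TPM of 12 genes in each CCD library at 72 h (points), placed by library set, with control sets in grey and lithium sets in red; black bars are set means and every vertical axis starts at 0. In each panel the lithium libraries lie wholly above (Galnt12 to Bax) or wholly below (Kcnj13 to Txk) the control libraries. All 12 genes come from those without overlap, 199 above (1.71%) and 36 below (0.309%) of 11644 genes tested, so they do not stand for genes at large.

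Large falls outside the immediate early genes included a phosphodiesterase, a potassium channel and a kinase. Gdpd2, a glycerophosphodiester phosphodiesterase, lay at 9.34, 22.5 and 34.4 TPM in control and 0, 2.08 and 4.53 TPM in lithium libraries (log2 difference -2.89, SE 0.175, adjusted p = 6.66e-17). Kcnj13, the inward rectifier Kir7.1, lay at 51.5, 75.5 and 88.1 TPM in control and 10.8, 21.8 and 29.0 TPM in lithium libraries (log2 difference -1.75, SE 0.0938, adjusted p = 2.13e-18). Txk, a Tec-family tyrosine kinase best known from T cells, lay at 51.3, 66.9 and 108 TPM in control and 15.7, 20.9 and 28.6 TPM in lithium libraries (log2 difference -1.63, SE 0.0947, adjusted p = 1.99e-17). The cell source of Txk was not tested. No lithium library reached the lowest control in these 3 genes. Cldn19, a tight junction claudin of the loop and distal tubule, lay at 78.6, 118 and 156 TPM in control and 19.6, 28.2 and 46.3 TPM in lithium libraries (log2 difference -1.88, SE 0.109, adjusted p = 2.12e-17), again without overlap.

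Mt3, a metallothionein that binds zinc and copper, lay at 113, 317 and 583 TPM in control and 52.4, 80.8 and 109 TPM in lithium libraries (log2 difference -1.77, SE 0.165, adjusted p = 1.2e-11). Its control libraries were wide apart, and its lithium libraries lay within a narrower range below all of them. Cga, the common alpha subunit of the glycoprotein hormones, lay at 14.3, 33.5 and 69.9 TPM in control and 4.99, 12.7 and 40.8 TPM in lithium libraries, and 12 of 19 lithium libraries were below the lowest control. Defb29, a beta-defensin, changed by -1.50 (SE 0.221) and Timp4, an inhibitor of metalloproteinases, by -1.45 (SE 0.115). Ttll3, which adds glycine chains to tubulin, lay at 2.46, 8.14 and 13.2 TPM in control and 0.320, 2.32 and 3.64 TPM in lithium libraries, a log2 difference of -1.47. Lrrc31, a leucine-rich repeat protein, changed by -1.44, and Akap17b, which anchors protein kinase A, by -1.36.

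Some of the large falls were in genes known from fat cells or from endothelium. Lpl, lipoprotein lipase, lay at 139, 363 and 626 TPM in control and 73.6, 120.0 and 161 TPM in lithium libraries (log2 difference -1.50, SE 0.137, adjusted p = 9.21e-12). Fabp4, a fatty acid-binding protein, lay at 1.28, 4.76 and 18.3 TPM in control and 0, 0.880 and 8.03 TPM in lithium libraries, a log2 difference of -1.67. Of the 10 endothelial markers tested, 9 were lower over libraries and 4 in both fits, with a median difference of -0.86. The same list had a median of -0.93 in cTAL, and the lithium effect of 1 marker differed between segments over libraries. The fall of these markers was thus not particular to the duct. Esam, an endothelial adhesion molecule, changed by -1.35 and Tie1, an endothelial receptor kinase, by -1.01. The fall of Cdh5, vascular endothelial cadherin, was -0.73, and it was not called with library sets as a random block (adjusted p = 0.0636). In control libraries the mean of Lpl was 348 TPM in CCD and 14.8 TPM in cTAL, and that of Fabp4 6.22 and 22.95 TPM. The lithium differences of Lpl and Fabp4 in cTAL were -0.87 and -1.20, not called there over libraries. Summed endothelial markers had medians of 69.3 and 580 TPM in the control libraries of CCD and cTAL. The part of endothelial RNA in the falls of Lpl and Fabp4 was not tested.

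Among genes called in both fits, the 10 that lost the most TPM included Fos, Degs2, Hsd11b2, Junb, Atp6v1g3, Slc26a4, Zfp36, Hist1h1c and Ndrg1. Degs2, which makes phytoceramide, lay at 2149.6, 2688 and 3667 TPM in control and 1554, 1732 and 2118 TPM in lithium libraries (log2 difference -0.65, SE 0.0603, adjusted p = 1.05e-11). Hsd11b2, the enzyme that protects the mineralocorticoid receptor from glucocorticoids, lay at 3070.0, 3765 and 4546 TPM in control and 2575, 3004 and 3771 TPM in lithium libraries, a smaller log2 difference of -0.33. Ndrg1, a stress-regulated protein, lay at 632, 802 and 1012 TPM in control and 244, 339 and 568 TPM in lithium libraries (log2 difference -1.19, SE 0.088, adjusted p = 2.47e-14). Lithium and control libraries were apart for Degs2 and Ndrg1 and overlapped for Hsd11b2. The linker histone gene Hist1h1c changed by -1.41, with no overlap.

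Promoter sequences are shown for 2 of the 30 largest rises and 2 of the 30 largest falls. They were chosen because they carried a binding motif of a factor known for inflammatory or for cAMP-driven transcription. The 2 rises were picked from those with the motif as a chemokine and a ubiquitin-like gene, so they do not stand for all rises with it. The windows run from 250 bases before to 50 after the start of the gene, are from RefSeq on GRCr8, and are written 5′ to 3′ on the strand of the gene. That build is not the one of the TPM values, so the windows are linked to them by symbol only. Capitals mark the motif, searched on both strands as GGGNNTTCC (NF-kB) for Ccl20, a chemokine gene, and Ubd, the gene of a ubiquitin-like protein, and as TGACGTCA (the cAMP response element) for the antiproliferative gene Btg2 and for Ppp1r15a, which restarts translation after stress. They are Ccl20 at chr9:91836909-91837208 (plus strand), Ubd at chr20:1392636-1392935 (minus strand), Btg2 at chr13:48087641-48087940 (minus strand) and Ppp1r15a at chr1:105139547-105139846 (minus strand).
Ccl20: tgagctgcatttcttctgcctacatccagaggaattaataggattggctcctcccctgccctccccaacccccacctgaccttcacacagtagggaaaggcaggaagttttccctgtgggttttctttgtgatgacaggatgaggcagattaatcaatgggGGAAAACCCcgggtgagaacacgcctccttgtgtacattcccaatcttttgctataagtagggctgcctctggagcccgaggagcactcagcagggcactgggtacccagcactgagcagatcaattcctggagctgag
Ubd: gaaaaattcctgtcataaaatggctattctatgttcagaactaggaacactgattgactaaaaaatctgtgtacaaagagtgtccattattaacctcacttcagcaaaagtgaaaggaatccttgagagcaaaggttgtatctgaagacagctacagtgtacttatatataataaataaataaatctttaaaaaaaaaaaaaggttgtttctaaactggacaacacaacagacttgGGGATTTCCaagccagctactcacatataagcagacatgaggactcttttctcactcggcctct
Btg2: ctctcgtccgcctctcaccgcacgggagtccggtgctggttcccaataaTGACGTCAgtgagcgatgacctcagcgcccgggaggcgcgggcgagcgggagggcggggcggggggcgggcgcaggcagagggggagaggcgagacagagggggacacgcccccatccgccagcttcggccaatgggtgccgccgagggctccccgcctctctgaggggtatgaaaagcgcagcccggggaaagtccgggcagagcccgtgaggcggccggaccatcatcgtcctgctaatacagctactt
Ppp1r15a: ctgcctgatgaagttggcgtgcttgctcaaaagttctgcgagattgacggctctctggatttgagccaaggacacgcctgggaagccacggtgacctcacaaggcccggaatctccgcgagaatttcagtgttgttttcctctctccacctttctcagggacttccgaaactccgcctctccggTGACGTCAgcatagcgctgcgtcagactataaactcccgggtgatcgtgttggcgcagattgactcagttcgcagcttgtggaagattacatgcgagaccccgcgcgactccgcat
The match begins 89 bases before the start in Ccl20, 14 in Ubd, 201 in Btg2 and 66 in Ppp1r15a. Ccl20 lay at 0.0900, 1.66 and 11.3 TPM in control and 62.4, 119.5 and 223 TPM in lithium libraries, a log2 difference of 5.38. Ubd lay at 0.270, 1.88 and 4.98 TPM in control and 11.1, 16.8 and 123.49 TPM in lithium libraries, without overlap, and its highest value was that of 1 library of lithium set 3. Btg2 lay at 356, 598 and 902 TPM in control and 112, 194 and 341 TPM in lithium libraries and Ppp1r15a at 99.1, 144 and 222 TPM in control and 36.1, 55.0 and 87.7 TPM in lithium libraries, and in both all lithium libraries were below all controls. Of the 30 largest rises 24 had a window, and 6 of these 24 held the NF-kB motif, against 7.18% of 8523 windows of tested genes and 5.97% of all 27457 windows. Besides Ccl20 and Ubd the 6 included Apol9a and the testis genes Cox6b2 and Tcp11. Of the 23 windows of falls 1 held it, that of Ppp1r15a, where it is not marked. Of the 23 windows among the 30 largest falls 2 (8.70%) held the full cAMP response element, against 3.21% of tested genes and 1.91% of all windows. Among the rises 1 of 24 held it, Mlf1. Its first 5 letters alone, TGACG, were in 8 of 23 falls (34.8%), 3 of 24 rises (12.5%) and 33.3% of tested genes. The CCAAT box was in 45.8% of the windows of rises, 39.1% of falls and 38.5% of tested genes, and the cell cycle motif TTTGAA in 4.17%, 13.0% and 11.3%. A match describes the letters and does not show that a factor binds there.

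Cytosolic ribosomal protein genes were called higher more often than genes at large. The count of a list is also given, here and below, without a set or with median-of-ratios scaling wherever that moved it by over 1.5 times and by at least 3 genes. List counts are to be read beside the shares of all genes. These were 22.0% higher and 15.2% lower over libraries, and 10.8% and 4.29% in both fits. Of 71 cytosolic ribosomal protein genes, 66 were higher and 0 lower over libraries, where 22.0% of all genes were higher. In both fits 54 were higher. Their median log2 difference was 0.49 against 0.00 for all genes. Rps18, of the small subunit, lay at 173, 220.3 and 330.1 TPM in control and 273, 358 and 406 TPM in lithium libraries (log2 difference 0.64, SE 0.0681, adjusted p = 4.21e-10), and 15 of 19 lithium libraries were above the highest control. Rpl31, of the large subunit, lay at 34.6, 43.3 and 79.0 TPM in control and 56.9, 72.4 and 93.3 TPM in lithium libraries (log2 difference 0.75, SE 0.0771, adjusted p = 1.58e-10), with more overlap. Rps27l, a paralog of Rps27 known as a p53 target, had the largest difference of the group, 1.19, and its libraries did not overlap. In cTAL the median of the same group was 0.16. These short genes have many processed copies in the genome, between which the authors' counting could have split reads.

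Mitochondrial ribosomal proteins were mostly higher too, with a smaller median difference. Of 70 tested, 49 were higher and 1 lower over libraries, 23 higher in both fits, and the median difference was 0.25. Mrpl14 lay at 115, 146 and 189 TPM in control and 162, 233.6 and 289.8 TPM in lithium libraries (log2 difference 0.66, SE 0.0704, adjusted p = 4.55e-10). Of 19 genes of mitochondrial protein import 9 were higher and none lower over libraries, and 3 were higher in both fits, namely Timm13, Timm50 and Tomm5 with 0.40, 0.38 and 0.38.

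Translation factors that were called were mostly higher. Of 53 initiation factor genes 22 were higher and 4 lower over libraries, and 12 and 1 in both fits. Over libraries that is 41.5% and 7.55%, against 22.0% and 15.2% of all genes. Eif3g, a subunit of the factor that places the small ribosomal subunit on mRNA, lay at 170.3, 191 and 211 TPM in control and 223, 244 and 309 TPM in lithium libraries (log2 difference 0.40, SE 0.0464, adjusted p = 3.4e-09), without overlap. Eif5a, the hypusine-bearing elongation and termination factor, rose by 0.34, and Dhps, which makes its hypusine, by 0.34. Eif4ebp1, which blocks cap-dependent initiation, rose by 0.56 as well. Among 35 aminoacyl-tRNA synthetases 12 were higher and 2 lower over libraries, with 4 higher in both fits: Vars, Tars, Farsb and Cars, by 0.60, 0.44, 0.39 and 0.39, while over libraries the higher count was 6 without control set 1 and 7 without lithium set 3.

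Splicing and nuclear transport genes were more often higher than lower. Of 75 splicing factors 38 were higher and 1 lower over libraries, and 21 were higher in both fits, with a median of 0.22, while over libraries the lower count was 7 with scaling and 6 without lithium set 4. Snrpa, a protein of the spliceosome's first-acting snRNP, lay at 24.8, 28.9 and 41.5 TPM in control and 47.5, 60.7 and 82.5 TPM in lithium libraries (log2 difference 0.99, SE 0.0741, adjusted p = 2.78e-14). Snrpb, a core Sm protein, lay at 235, 266 and 302 TPM in control and 333, 370.5 and 486 TPM in lithium libraries (log2 difference 0.49, SE 0.0429, adjusted p = 2.78e-12). Hnrnpa1, which represses exons, rose by 0.62, and Lsm2, of an RNA-binding ring of the spliceosome, by 0.78. All 4 were free of overlap between the groups. Of 46 nuclear pore and transport genes 19 were higher and 2 lower over libraries, and 11 were higher in both fits. Ran, the GTPase that gives nuclear transport its direction, lay at 293, 344 and 384 TPM in control and 487, 544 and 689 TPM in lithium libraries (log2 difference 0.70, SE 0.0472, adjusted p = 1.4e-15), and its partners Ranbp1 and Rangap1 rose by 0.77 and 0.78. The importin Kpna2 rose by 1.19.

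Most proteasome genes were higher, and the 3 largest differences were those of the interferon-inducible catalytic subunits. Of 46 tested, 35 were higher and 1 lower over libraries, 20 were higher in both fits, and the median was 0.25. Psmb10, an inducible catalytic subunit, lay at 16.4, 24.1 and 32.3 TPM in control and 52.3, 80.0 and 101 TPM in lithium libraries (log2 difference 1.68, SE 0.086, adjusted p = 6.24e-19). The other inducible subunits Psmb8 and Psmb9 rose by 1.93 and 1.66, and the activator subunit Psme2 by 0.90. In all 4 genes each lithium library was above each control. The constitutive catalytic subunits Psmb5, Psmb6 and Psmb7, named here after their values were seen, rose by 0.35, 0.36 and 0.33. Of 12 immune markers 1, Cd74, was higher over libraries (1.21) and none in both fits, and their part in the rise of the inducible subunits was not tested.

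**Figure D3:**
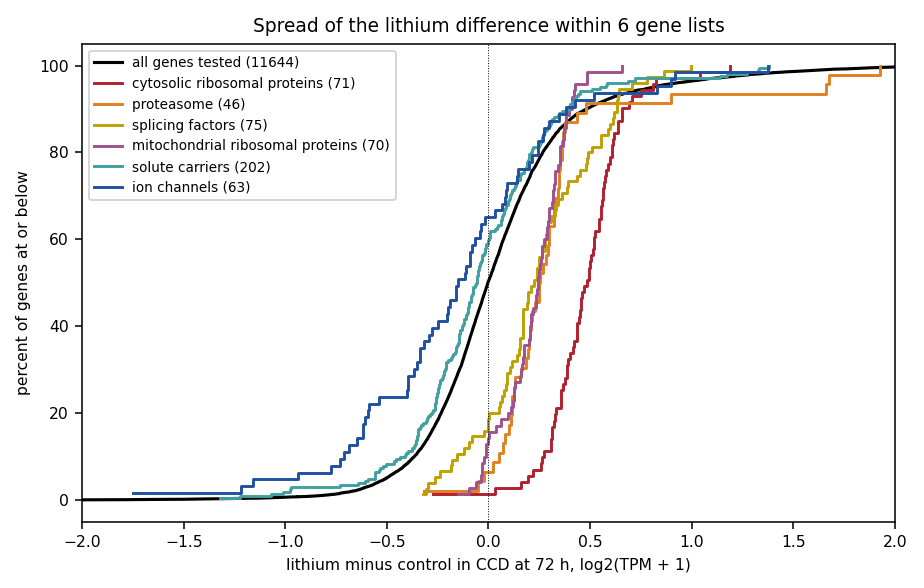
Share of genes at or below a given lithium minus control difference (log2(TPM + 1), CCD at 72 h) for 6 gene lists and for all 11644 genes tested (black). The curve of cytosolic ribosomal proteins lies to the right of the others over most of its height and has its median at 0.49, and the curve of ion channels lies to the left with a median of -0.15.

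The chaperonin CCT, which folds actin and tubulin, and its partner prefoldin had 10 of 14 genes higher and 1 lower over libraries, and 5 higher in both fits. Cct4 and Cct6a rose by 0.32 and 0.38. Ubiquitin-conjugating enzymes included large rises of cell cycle members. Ube2c, which serves the anaphase-promoting complex, lay at 32.1, 54.4 and 122 TPM in control and 183, 293 and 364 TPM in lithium libraries (log2 difference 2.15, SE 0.139, adjusted p = 4.72e-16). Its partner Ube2s rose by 0.74 and the DNA repair enzyme Ube2t by 1.41. In all 13 of 30 enzymes were higher and 4 lower over libraries, and 8 and 2 in both fits.

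Ubiquitin ligases went the other way in number. Of 178 RING, F-box and Kelch genes 20 were higher and 40 lower over libraries, and 8 and 14 in both fits. Over libraries that is 11.2% and 22.5%, against 22.0% and 15.2% of all genes. The lower count over libraries was 24 without control set 3 and without lithium set 1. Fbxo7, an F-box protein that also binds the proteasome, rose and lay at 112, 155 and 178 TPM in control and 236, 277 and 309.6 TPM in lithium libraries (log2 difference 0.86, SE 0.0486, adjusted p = 8.87e-18), without overlap. Rnf186, a membrane-bound RING ligase of epithelia, fell and lay at 202, 363 and 487 TPM in control and 108, 141 and 268 TPM in lithium libraries (log2 difference -1.26, SE 0.0971, adjusted p = 6.48e-14), with 16 of 19 lithium libraries below the controls. Of 36 autophagy genes 4 were higher (11.1%) and 10 lower (27.8%) over libraries. The higher count over libraries was 1 without control set 2, without control set 4 and without lithium set 3. The 3 lower in both fits were Ulk1, the starting kinase (-0.75), Atg3 (-0.51) and Atg12 (-0.38), which act in the conjugation steps.

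**Figure D4:**
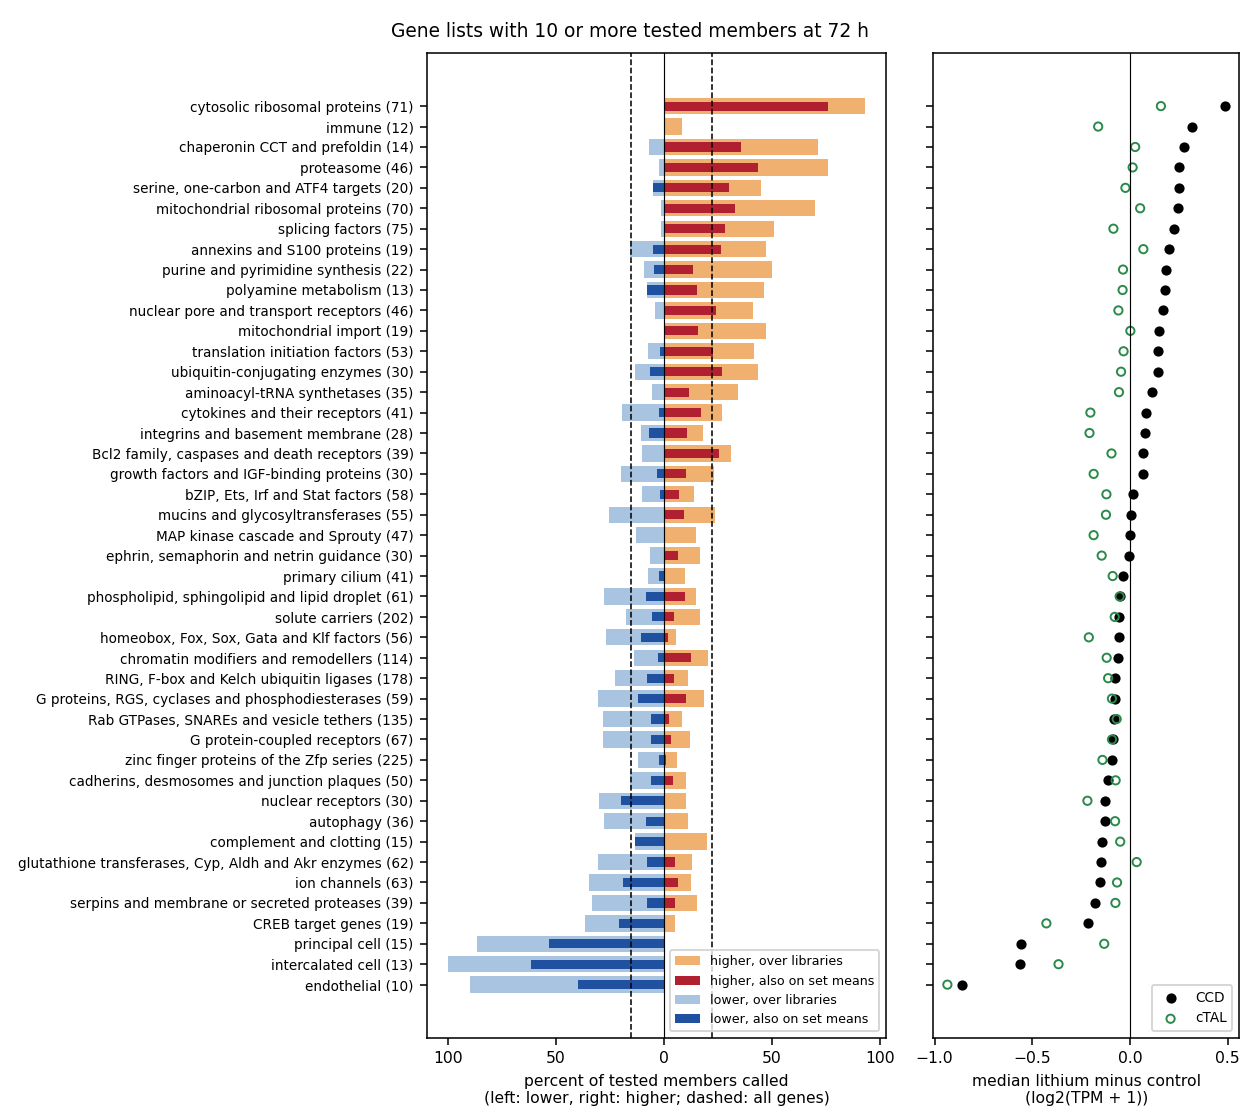
Left, percent of tested members called lower (blue, to the left) and higher (orange and red, to the right) in CCD at 72 h for 44 lists with 10 or more tested members, with narrow dark bars for calls in both fits and dashed lines at 22.0% and 15.2%, the shares over all genes. Right, the median lithium minus control difference (log2(TPM + 1)) of each list in CCD (filled) and cTAL (open); lists of protein synthesis and removal stand near the top, beside immune markers of which 1 was called, and marker lists of the duct and of endothelium stand at the bottom.

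Of 20 serine, one-carbon and Atf4 target genes 9 were higher and 1 lower over libraries, and 6 and 1 in both fits. Phgdh, the first enzyme of serine synthesis, lay at 35.8, 45.8 and 55.2 TPM in control and 51.2, 68.1 and 127 TPM in lithium libraries (log2 difference 0.64, SE 0.0755, adjusted p = 4.23e-09). Psat1, the next enzyme, rose by 0.59 and the mitochondrial folate enzyme Mthfd1l by 1.11. The exception in this list was Ddit4, a brake on mTORC1, which lay at 12.9, 32.3 and 67.0 TPM in control and 6.19, 11.4 and 16.0 TPM in lithium libraries (log2 difference -1.35, SE 0.16, adjusted p = 5.17e-09). Gcsh, the lipoyl-bearing protein of glycine cleavage, fell and lay at 122, 149 and 218 TPM in control and 64.3, 78.6 and 90.8 TPM in lithium libraries (log2 difference -0.94, SE 0.0524, adjusted p = 6.81e-18), without overlap.

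Of 22 purine and pyrimidine genes 11 were higher and 2 lower over libraries, and 3 and 1 in both fits. Umps, which completes UMP synthesis, lay at 98.8, 116 and 132 TPM in control and 132, 147 and 199 TPM in lithium libraries (log2 difference 0.39, SE 0.0479, adjusted p = 1.56e-08). Impdh1, of guanine nucleotide synthesis, and Nme1, a nucleoside diphosphate kinase, rose by 0.72 and 0.39, while adenosine kinase Adk changed by -0.33. Among 13 polyamine genes 6 were higher over libraries and 1 was lower, while over libraries the higher count was 3 without lithium set 3. The lower gene was Sat1, the acetyltransferase that starts polyamine breakdown, and it lay at 715, 911 and 1069.6 TPM in control and 342, 508 and 628 TPM in lithium libraries (log2 difference -0.84, SE 0.0658, adjusted p = 1.27e-13), without overlap.

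Lipid genes moved in both directions. Of 61 tested 9 were higher and 17 lower over libraries, and 6 and 5 in both fits. Over libraries that is 14.8% and 27.9%, against 22.0% and 15.2% of all genes. The lower count over libraries was 10 without control set 4 and without lithium set 1. Lpcat2, which re-acylates lysophospholipids, lay at 0.5, 3.05 and 4.94 TPM in control and 9.61, 16.2 and 24.4 TPM in lithium libraries (log2 difference 2.11, SE 0.141, adjusted p = 1.14e-15), and Lpcat4 rose by 0.86. In the making of polyunsaturated fatty acids the elongase Elovl5 lay at 25.9, 58.5 and 79.1 TPM in control and 101, 133 and 196 TPM in lithium libraries (log2 difference 1.28, SE 0.109, adjusted p = 1.1e-12), while the desaturase Fads1 changed by -0.76 (SE 0.0798). Among 62 glutathione transferase, Cyp, Aldh and Akr genes 8 were higher and 19 lower over libraries, and 3 and 5 in both fits, while over libraries the higher count was 5 without control set 2, and the lower count was 12 without lithium set 1. Gsta3 lay at 47.0, 56.5 and 101 TPM in control and 22.7, 32.1 and 42.1 TPM in lithium libraries (log2 difference -0.95, SE 0.094, adjusted p = 7.19e-11), Gstm1 changed by -0.48 and Aldh6a1, of valine breakdown, by -0.85. Cyp51, of cholesterol synthesis, rose by 0.51.

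Ion channel genes were lower more often than higher. Of 63 ion channel genes 8 were higher and 22 lower over libraries, against 15.2% of all genes lower, and 4 and 12 in both fits. Their median was -0.15. Kcne1, an accessory subunit of potassium channels, lay at 385, 727 and 909 TPM in control and 175, 331 and 418 TPM in lithium libraries (log2 difference -1.22, SE 0.1, adjusted p = 4.84e-13). Scnn1b and Scnn1a of the sodium channel changed by -1.16 and -0.94. The 4 channel genes higher in both fits, chosen for naming after their values were seen except for Clic1, were Cacnb3 (1.38), Kcne3 (0.92), Hcn2 (0.90) and Clic1 (0.35). Of the principal cell markers 13 of 15 and of the intercalated cell markers 13 of 13 were lower over libraries, 8 of each in both fits, with medians of -0.56 and -0.56. Scnn1b and Kcne1 are on both the principal cell and the channel list, so these counts share members. The part of the markers in the channel result was not tested.

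The named genes included subunits of the proton pump of intercalated cells. Atp6v0d1, the d subunit form found in most tissues, lay at 873, 951 and 1093 TPM in control and 506, 541 and 700.2 TPM in lithium libraries (log2 difference -0.81, SE 0.0403, adjusted p = 3.3e-19), without overlap and with set means within 0.05 in control and 0.09 in lithium on the log2 scale. Atp6v0d2, the form of restricted tissues including intercalated cells, lay at 1132, 1471 and 1620.2 TPM in control and 991, 1107 and 1203 TPM in lithium libraries, a log2 difference of -0.41, and overlapped. Atp6v1c2 changed by -0.80, without overlap, and Atp6v1g3 by -0.42, with overlap. Foxi1, the transcription factor of intercalated cells, lay at 662, 901 and 1212 TPM in control and 470.4, 624 and 706 TPM in lithium libraries (log2 difference -0.57, SE 0.0605, adjusted p = 3.82e-10).

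Of 202 solute carrier genes 34 were higher and 36 lower over libraries. In both fits 9 were higher (4.46%, against 10.8% of all genes) and 11 lower (5.45%, against 4.29%), while over libraries the higher count was 22 without control set 1 and without lithium set 4, and the lower count was 23 without lithium set 1. Without control set 1, 54 were lower over libraries. Slc25a43, of the mitochondrial carrier family, lay at 69.6, 117 and 129 TPM in control and 34.8, 43.1 and 51.4 TPM in lithium libraries (log2 difference -1.32, SE 0.067, adjusted p = 4.82e-19), without overlap. Slc25a35, of the same family, changed by -1.07. The insulin-regulated glucose transporter Slc2a4, scarce in control ducts, lay at 0.0300, 0.820 and 1.74 TPM in control and 2.39, 3.33 and 6.04 TPM in lithium libraries (log2 difference 1.33, SE 0.121, adjusted p = 7.15e-12), and the lactate carrier Slc16a1 at 0, 0.0600 and 0.950 TPM in control and 0.760, 1.93 and 2.66 TPM in lithium libraries, a log2 difference of 1.14.

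Of 41 cytokine and receptor genes 11 were higher and 8 lower over libraries, where 22.0% and 15.2% of all genes were, and 7 and 1 in both fits, while over libraries the lower count was 4 without lithium set 1. Tnfrsf12a, the receptor of TWEAK, lay at 36.0, 51.1 and 76.1 TPM in control and 85.0, 135 and 214 TPM in lithium libraries (log2 difference 1.36, SE 0.104, adjusted p = 6.66e-14), without overlap. Il17rd, a decoy-like interleukin-17 receptor, rose by 1.21 and Tnfsf9, the ligand of 4-1BB, by 1.29. The interleukin-11 receptor Il11ra1 changed by -0.37. Of 67 G protein-coupled receptors 8 were higher and 19 lower over libraries, and 2 and 4 in both fits, while over libraries the higher count was 4 without control set 1 and without control set 2 and 5 without lithium set 3 and without lithium set 4, and the lower count was 12 without lithium set 1. Gpr160 lay at 162, 219.7 and 260.2 TPM in control and 115, 133 and 153 TPM in lithium libraries (log2 difference -0.73, SE 0.0496, adjusted p = 2.12e-15), without overlap. The glucagon receptor Gcgr lay at 59.6, 89.0 and 136 TPM in control and 30.96, 51.2 and 76.3 TPM in lithium libraries (log2 difference -0.87, SE 0.113, adjusted p = 3.71e-08), and the orphan receptor Gpr19 rose by 0.97.

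Growth factor genes included Adm2, which encodes a peptide of the calcitonin family, at 1.39, 7.92 and 15.2 TPM in control and 31.6, 70.8 and 134 TPM in lithium libraries (log2 difference 3.11, SE 0.227, adjusted p = 1.61e-14). Nrg1, an ErbB ligand, rose by 0.88 and Wnt7b, a Wnt ligand of the duct, by 1.03. The stress cytokine Gdf15 fell and lay at 116, 255 and 619 TPM in control and 86.3, 133 and 360.0 TPM in lithium libraries, with wide overlap. Its log2 difference was -0.76 (SE 0.163, adjusted p = 0.00024 over libraries and 0.0244 on set means). In cAMP signalling, 11 of 59 G protein, cyclase, phosphodiesterase and anchoring genes were higher and 18 lower over libraries, and 6 and 7 in both fits. The inhibitory alpha subunit Gnai2 rose by 0.32 (SE 0.0498), and Adcy3, an adenylyl cyclase, by 0.62. Of 19 CREB target genes 1 was higher and 7 were lower over libraries, and 4 were lower in both fits: Fos (-2.22), Rasd1 (-1.92), Fosb (-0.85) and Dusp1 (-0.54). The median of this list was -0.22 in CCD and -0.43 in cTAL, and the lithium effect of 4 of its genes differed between segments over libraries. The complement regulator Cd59, which blocks the membrane attack complex, lay at 770.5, 1035 and 1182 TPM in control and 573, 638 and 757 TPM in lithium libraries (log2 difference -0.64, SE 0.0443, adjusted p = 2.99e-15), without overlap.

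Arhgap11a, a GTPase-activating protein of dividing cells, lay at 1.31, 3.75 and 6.51 TPM in control and 7.79, 13.9 and 23.0 TPM in lithium libraries (log2 difference 1.65, SE 0.148, adjusted p = 5.16e-12), and Iqgap3, a scaffold of proliferating cells, rose by 1.92. Arhgap8 lay at 14.8, 20.4 and 30.9 TPM in control and 31.6, 41.7 and 46.4 TPM in lithium libraries (log2 difference 0.91, SE 0.0832, adjusted p = 7.42e-12), without overlap. Of 19 annexin and S100 genes 9 were higher and 3 lower over libraries, and 5 and 1 in both fits. Anxa5, which binds phosphatidylserine, lay at 116, 139.5 and 165 TPM in control and 167, 199.6 and 253 TPM in lithium libraries (log2 difference 0.56, SE 0.0563, adjusted p = 1.18e-10), and Anxa2 rose by 0.44. Anxa9 changed by -1.17. In the basement membrane Col4a1 rose by 1.21 and Col18a1 by 0.94, while Col4a4, of the other collagen IV network, changed by -0.68. The alpha-catulin gene Ctnnal1 lay at 92.0, 159 and 244 TPM in control and 40.5, 70.6 and 107 TPM in lithium libraries (log2 difference -1.13, SE 0.106, adjusted p = 1.42e-11), and the cadherin Cdh3 rose by 1.25.

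Vesicle traffic genes were more often lower than higher. Of 135 Rab, SNARE and tether genes 11 were higher and 38 lower over libraries, and 3 and 8 in both fits. Over libraries that is 8.15% and 28.1%, against 22.0% and 15.2% of all genes. The lower count over libraries was 23 without lithium set 1. Rab17, an epithelial Rab of apical recycling, lay at 236, 269 and 332 TPM in control and 179, 198 and 237 TPM in lithium libraries (log2 difference -0.43, SE 0.0443, adjusted p = 2.09e-10), and 18 of 19 lithium libraries were below the lowest control. Rab11a, of recycling endosomes, was named after its values were seen and changed by -0.24. Rab34, which acts in ciliogenesis, rose by 0.42. Of 41 genes of the primary cilium 4 were higher and 3 lower over libraries, and 1, the Hedgehog receptor Ptch1, was lower in both fits (-0.56), while over libraries the lower count was 7 with scaling and 6 without control set 1.

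Of 56 homeobox, Fox, Sox, Gata and Klf factors 3 were higher and 15 lower over libraries, and 1 and 6 in both fits. Over libraries that is 5.36% and 26.8%, against 22.0% and 15.2% of all genes. Without lithium set 1 the higher and lower counts over libraries were 7 and 7. The Hox genes Hoxb2 and Hoxb6 changed by -0.44 and -0.35. Foxm1, which drives mitotic genes, lay at 2.32, 4.30 and 9.58 TPM in control and 6.96, 12.5 and 22.8 TPM in lithium libraries (log2 difference 1.28, SE 0.137, adjusted p = 4.47e-10). Of 30 nuclear receptors 3 were higher and 9 lower over libraries, and 0 and 6 in both fits. Nr1d1, the clock repressor Rev-erb alpha, lay at 21.8, 42.4 and 77.2 TPM in control and 11.7, 20.7 and 30.6 TPM in lithium libraries (log2 difference -1.16, SE 0.133, adjusted p = 2.48e-09), the vitamin D receptor Vdr changed by -0.55 and the thyroid hormone receptor Thra by -0.43. The interferon factor Irf1 lay at 8.25, 15.0 and 27.8 TPM in control and 20.01, 37.1 and 60.3 TPM in lithium libraries (log2 difference 1.10, SE 0.135, adjusted p = 1.18e-08), and the epithelial Ets factor Ehf changed by -0.71.

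Of 225 zinc finger genes of the Zfp series 14 were higher and 27 lower over libraries, and 2 and 5 in both fits. Over libraries that is 6.22% and 12.0%, both under the 22.0% and 15.2% of all genes. The higher count over libraries was 9 without lithium set 4. The lower count was 47 with scaling, 17 without control set 3, 15 without lithium set 1 and 45 without lithium set 4. Among 114 chromatin genes 23 were higher and 16 lower over libraries, and 14 and 3 in both fits. Over libraries that is 20.2% and 14.0%, near the shares of all genes. The lower count over libraries was 27 with scaling and 10 without lithium set 1. Uhrf1, which recruits the maintenance DNA methyltransferase, lay at 1.91, 5.11 and 12.2 TPM in control and 11.2, 22.6 and 37.4 TPM in lithium libraries (log2 difference 1.86, SE 0.16, adjusted p = 1.46e-12). The histone chaperones Asf1b and Chaf1b rose by 1.52 and 1.34 and the chromatin protein Hmgb2 by 1.14. The linker histone H1fx lay at 21.0, 36.5 and 53.7 TPM in control and 95.8, 150.0 and 285 TPM in lithium libraries (log2 difference 1.97, SE 0.111, adjusted p = 8.87e-18), without overlap, while Hist1h1c of the same family fell.

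Cell death genes with opposite known roles were among the rises. Of 39 tested 12 were higher and 4 lower over libraries, and 10 and 0 in both fits. Over libraries that is 30.8% and 10.3%, against 22.0% and 15.2% of all genes. The lower count over libraries was 7 with scaling and 8 without control set 1. Bax, which permeabilises mitochondria, lay at 51.4, 85.5 and 98.9 TPM in control and 132, 166 and 228 TPM in lithium libraries (log2 difference 1.05, SE 0.0788, adjusted p = 3.78e-14), and its relative Bok at 30.2, 49.2 and 96.0 TPM in control and 98.7, 143 and 194 TPM in lithium libraries (log2 difference 1.42, SE 0.13, adjusted p = 9.31e-12). Ripk3, the kinase of necroptosis, rose by 1.46. Birc5, survivin, which inhibits apoptosis and is needed in mitosis, rose by 1.88. The libraries of the groups did not overlap in these 4 genes.

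Genes called in both fits varied among the library sets about equally in each group. The median range of the 4 set means was 0.39 in control and 0.37 in lithium on the log2 scale for genes that rose, and 0.40 and 0.36 for genes that fell. Some large rises were uniform across lithium sets: the range was 0.26 for Mlf1, 0.29 for Ube2c and 0.36 for Tubb6, a beta-tubulin. Others were not, with 2.06 for the keratin Krt19, 1.94 for the apolipoprotein L gene Apol9a and 1.74 for Guca2b. These ranges describe the sets and were not tested.

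The response of the duct was compared with that of the thick ascending limb by testing the difference of the lithium effects in a joint fit. In cTAL itself 82 of 11702 genes (0.701%) were called over libraries, 13 higher and 69 lower. None was called on set means, where 262 genes had an unadjusted p under 0.05. That fit rests on 3 control and 3 lithium sets, 1 of them of 2 libraries, against 4 and 4 sets in CCD. With fewer sets it can call less, so the lack of calls does not show that cTAL did not respond. Of 13083 genes 2000 (15.3%) differed between segments over libraries, 1550 with the more positive effect in CCD (11.8%) and 450 with the more negative one (3.44%). On set means 566 differed (4.33%), 499 (3.81%) and 67 (0.512%), and with median-of-ratios scaling over libraries 1109 and 857. Of the 1258 genes that rose in CCD in both fits, 961 (76.4%) differed from cTAL over libraries and 469 (37.3%) also on set means. Of the 499 that fell, 258 (51.7%) and 63 (12.6%) did. The CCD difference that selected these genes is part of the tested contrast. Shares above those of all genes therefore follow in part from the selection.

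The difference of the effects was -0.95 for Atp6v0d1 (-0.81 in CCD, 0.14 in cTAL, adjusted p = 1.26e-17 over libraries and 0.000223 on set means). For Gapdh it was 0.83 (-0.06 in cTAL, adjusted p = 3.58e-13 and 0.00108), and for Fbxo7 0.90 (-0.04 in cTAL, adjusted p = 1.91e-12 and 0.00556). Ube2c and Spc24, a kinetochore gene, rose in CCD by 2.15 and 1.80 and had cTAL differences of -1.56 and -1.37, called over libraries (adjusted p = 0.0134 and 0.00959), neither of which was called there on set means. Of the 71 ribosomal protein genes 22 differed between segments over libraries, and of the 46 proteasome genes 19. For Fos the difference of -1.14 was not called (adjusted p = 0.205), and neither was that of Atp6v1c2 at -0.05 (adjusted p = 0.918), with cTAL values of -1.08 and -0.74. A missed threshold does not show that the effects were alike.

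**Figure D5:**
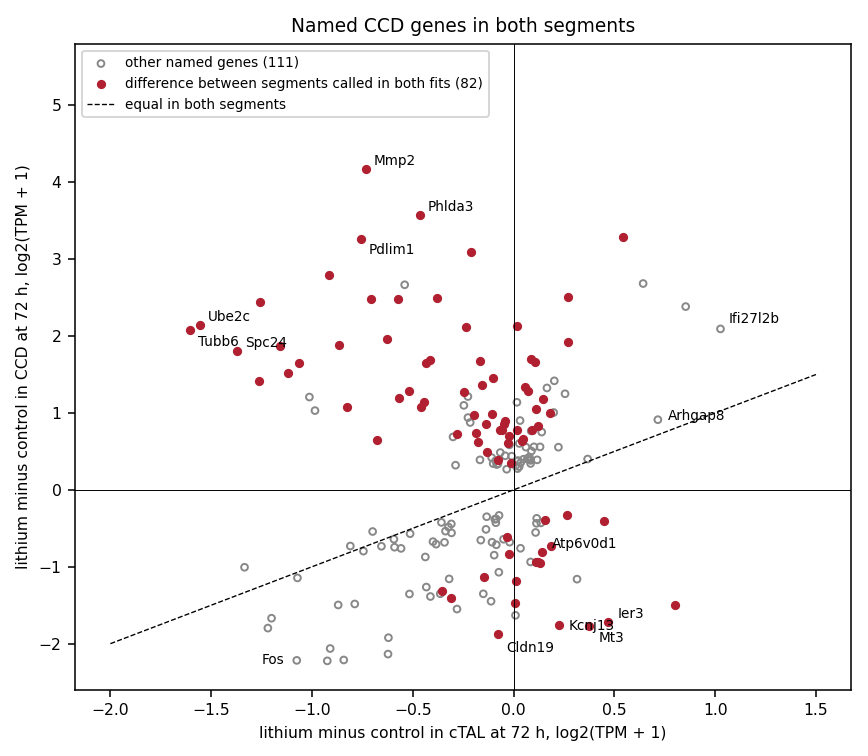
Lithium minus control difference (log2(TPM + 1)) in CCD (vertical) against cTAL (horizontal) at 72 h for the 193 named genes tested in both segments; the dashed line marks equal differences. Red points are the 82 genes whose difference between segments was called over libraries and on set means. Most named rises of CCD lie at or left of 0 in cTAL, where the median difference over all 11702 genes tested was itself -0.08. The genes were named for their change in CCD, so their spread along the vertical axis follows from that choice.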

How the data were processed

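RNA sequencing values of 36 CCD libraries at 72 h, and of 22 cTAL libraries for comparison, were used as deposited by the authors in TPM with 2 decimals for 32754 genes. Per the submitters' processing notes STAR 2.5.2b, RSEM 1.2.31 and the build Rnor_6.0 were used. The TPM unit keeps no read number, so the depth is unknown, no counting interval can be given, and precision rests on the spread between libraries. The SMARTer V4 kit named in the labels' protocols does not mark strand, so reads of a gene and of its antisense partner are not separable.

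Genes with a TPM of at least 1 in 17 or more CCD libraries (10 or more of the 4 groups for the difference between segments) entered limma 3.58.1 in R 4.3.3, with log2(TPM + 1) as the response and a trend of variance on mean level. Tests were two-sided, p-values were Benjamini-Hochberg adjusted over all genes tested, and calls were made under 0.05. Library sets of CCD were found from 11 genes with 2 separate levels. Those of cTAL were found from the genes among them that had 2 levels there too: Pfdn6, Mrps10, H3f3c, Igip and Slc39a1. The rule first written for such genes took mostly short transcripts with dropout, so it was replaced after seeing the data by a stricter one (a symbol of its own, a mean of 5 TPM, levels at least 5 SD, a log2 of 1 and a gap of 0.5 apart, and 4 libraries on each side). Other settings were pseudocounts of 0.1 and 5, filters of none and 5 TPM, median-of-ratios scaling, robust moderation, a replicate block, sets as a random block, and leaving out each library or set. The fit was checked on simulated data in which libraries were drawn independently, without sets. That check therefore cannot show how libraries of a set that share a source would affect the p-values.

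The comparison and the gene lists were chosen with earlier results of these data known. Lists were taken by symbol pattern or by hand, given as counts and medians, and not tested as sets. Genes were named by rule among those called in both fits: the 30 largest rises and falls with at least 5 TPM, the 10 largest gains and losses of TPM, up to 4 of smallest p per list, the 10 of smallest p for the difference from cTAL in each direction, and genes off in one group and on in the other. Others named beside a count of 5 or fewer were chosen after their values were seen. A few genes and 1 gene list are not reported here. Python 3.11.15, numpy 2.4.6, pandas 2.3.3 and matplotlib 3.10.9 were used.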

Additional observations from a re-analysis of the deposited data

Results flagged for a closer look

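The lithium effect differed between CCD and cTAL, over libraries and on set means, for the 20 genes below, which are the 10 of smallest p in each direction among genes called in CCD. Values are the CCD minus the cTAL effect on the log2 scale, tested with limma and Benjamini-Hochberg adjustment over 13083 genes.

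The effect was more positive in CCD for Mmp2 (4.90), a gelatinase, Phlda3 (4.04), a p53 target, Pdlim1 (4.02), an actin-binding adaptor, Ctrb1 (3.73) and Gip (3.06). It was also more positive for the cell cycle genes Spc24 (3.17) and Gtse1 (3.05), the linker histone gene H1fx (2.59), the tubulin gene Tubb5 (2.10) and the actin-severing gene Dstn (1.09). The cTAL effect itself was -1.37 for Spc24 and -0.73 for Mmp2. Adjusted p over libraries ranged from 3.83e-22 for Ctrb1 to 2.46e-15 for Spc24.

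The effect was more negative in CCD for Gdpd2 (-2.86), the stress gene Ier3 (-2.18), Kcnj13 (-1.98), Txk (-1.82) and Cldn19 (-1.80). It was also more negative for Lrrc31 (-1.49), Gcsh (-1.06), Id2 (-1.06), an inhibitor of helix-loop-helix factors, Atp6v0d1 (-0.95) and Gpr160 (-0.91). Ier3 had a cTAL value of 0.47 and Kcnj13 of 0.22. Adjusted p over libraries ranged from 1.26e-17 for Atp6v0d1 to 1.67e-09 for Lrrc31. Both CCD groups hold more than 10 libraries, so single libraries were not tested as outliers.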

How the results depend on the processing

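Across 53 other settings each of the 230 named genes kept its direction in CCD wherever it was tested, and each stayed called except Cdh5 with sets as a random block. Most of these genes were named because both fits called them, so their calls on set means follow from that choice. Most settings left out 1 library or set and so reused most of the libraries that picked the genes. The 4338 calls of CCD became 1759 on set means (1260 higher, 499 lower) and 2619 with sets as a random block (873 lower), settings that count sets rather than libraries. Other settings kept the count within 1.5 times: 4262 and 4406 with pseudocounts of 0.1 and 5, 4334 with no filter, 3700 with 5 TPM, 4721 with median-of-ratios scaling (2395 higher, 2326 lower) and 4322 with robust moderation. Leaving out 1 library gave 4131 to 4681 calls (2456 to 2651 higher, 1604 to 2188 lower). Leaving out 1 set gave 3673 to 4578 calls (2300 to 2589 higher, 1165 to 2206 lower), and the 1165 were without lithium libraries 1 to 6. On set means, chosen after seeing the data, leaving out 1 set gave 1147 to 1952 calls (884 to 1247 higher, 255 to 705 lower), with 1147 and 255 without control libraries 5 to 8, 1150 and 266 without lithium libraries 12 to 15, and 304 and 284 lower without lithium libraries 1 to 6 and 7 to 11. The difference between segments, 2000 genes, became 566 on set means (499 higher, 67 lower) and 871 with a random block (730 and 141), and scaling raised the lower count from 450 to 857. The causes were not tested.

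A replicate block gave 4232 calls. Replicate numbers did not pair the libraries: over 17 pairs the median correlation of deviations was 0.0742, 5 pairs were over 0.1, and 1 control library correlated best with its own number. Scaling turned the sign of list medians that were near 0 (bZIP, Ets, Irf and Stat factors, mucins, MAP kinases, and distal tubule markers) and no others. Low genes are limited by the floor of the log2(TPM + 1) scale.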

Other observations

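Counts of further gene groups are set beside the shares of all genes, 22.0% higher and 15.2% lower over libraries. Of 47 MAP kinase cascade and Sprouty genes 7 were higher and 6 lower over libraries, and none in both fits, while over libraries the higher count was 4 with scaling, and the lower count was 3 without control set 4 and without lithium set 1. Of 30 ephrin, semaphorin and netrin guidance genes 5 were higher and 2 lower, and 2 and 0 in both fits, while over libraries the lower count was 6 with scaling, 8 without control set 1 and 7 without lithium set 4. Of 50 cadherin, desmosome and junction plaque genes 5 were higher and 8 lower, and 2 and 3 in both fits, while over libraries the higher count was 2 without control set 4, and the lower count was 4 without control set 3 and without lithium set 1. Without control set 1, 12 were lower over libraries. Of 55 mucin and glycosyltransferase genes 13 were higher and 14 lower, and 5 and 0 in both fits, while over libraries the lower count was 8 without control set 3 and 7 without lithium set 1. Of 39 serpin and membrane or secreted protease genes 6 were higher and 13 lower, and 2 and 3 in both fits, while over libraries the lower count was 8 without lithium set 1. These counts are given as values and were not tested as groups.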
